A study of Mus musculus with 2 samples.

Results

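The genes described here encode the initiation and elongation factors of cytosolic translation and the enzymes named after them. They were chosen by name: every gene whose symbol starts with Eif or Eef and that has at least 1 transcript of type protein_coding in the annotation, leaving out the sex-linked pair Eif2s3x and Eif2s3y. The rule found 67 of the 55536 annotated genes, or of the 21901 with a protein_coding transcript. RNA came from whole hearts of female B6CASTF1/J mice aged 10 days, first-generation hybrids of a laboratory strain and a wild-derived strain, with no treatment or second genotype named. There was 1 group of 2 biological replicates with 1 total RNA library each, made from 300 ng of RNA with ERCC spike-ins (synthetic RNAs added to each sample). The labels describe separately numbered animals but refer both to a single donor record, so the spread between replicates 1 and 2 is that between these libraries, part of which may be technical. Levels are the deposited TPM, a relative abundance corrected for transcript length, so that genes can be compared within a library.

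Translation starts when the initiator tRNA, carried by eIF2 and GTP, joins the small ribosomal subunit with eIF1, eIF1A, eIF3 and eIF5. The eIF4 factors bring this complex to the capped end of an mRNA and unwind its leader, and eIF2B recharges eIF2 with GTP afterwards, a step that is blocked when stress kinases phosphorylate eIF2 alpha. In elongation, eEF1A delivers each aminoacyl-tRNA, the eEF1B subunits recharge eEF1A, and eEF2 moves the ribosome to the next codon. Mammals have 2 genes for eEF1A: Eef1a1 is used in nearly every cell, while Eef1a2 takes over in adult skeletal muscle, heart and neurons after birth, which makes their ratio at day 10 the feature of most interest in this tissue.

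Replicate 1 held 40184481 and replicate 2 held 39620543 expected counts in genes, of which mitochondrial genes took 23.8% and 22.5%. The 6 heart muscle markers (Myh6, Tnnt2, Actc1, Myl2, Tnni3, Ryr2) were all high, with a summed level of 29576 and 31247 TPM. Markers of other cells differed between the libraries. The 6 erythroid markers summed to 5269 TPM in replicate 1 and 12985 TPM in replicate 2, with 6 of 6 at least 1.5-fold higher in replicate 2. The 4 atrial markers summed to 506 and 933 TPM, with 4 of 4 higher by that fold, and the 5 adipocyte markers summed to 64.5 and 10.1 TPM, with 5 of 5 lower. Of all genes tested, 3.83% were higher and 4.22% lower by that fold, and of detected protein-coding genes 1.02% and 0.512%. Fibroblast (1556 and 1595 TPM), endothelial (462 and 448 TPM) and macrophage (39.7 and 48.9 TPM) markers had none past that fold. Skeletal muscle markers summed to 2.31 and 2.94 TPM, with Myod1 at 0 in both libraries, and neuron markers to 5.33 and 5.91 TPM, with 2 of 6 detected, Stmn2 at 2.82 and 3.00 TPM and Map2 at 2.21 and 2.51 TPM, and Snap25, Syt1 and Nefl at 0.07 TPM or less in both.

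Nearly the whole set was expressed. The detection threshold, 1 TPM in each library, was reached by 65 members (97.0%), against 53.5% of all protein-coding genes. The median level of the members was 28.4 TPM in replicate 1 and 27.5 TPM in replicate 2, while the median of all 11715 protein-coding genes detected by the same rule was 10.9 TPM in both. Levels were spread widely within the set. There were 11 members at 100 TPM or more in both libraries, 39 between 10 and 100 TPM in both, and 16 under 10 TPM in at least 1 library. The 3 most abundant genes, Eef1a1, Eef2 and Eif1, held 44.1% of the summed TPM of the set in replicate 1 and 42.8% in replicate 2. Over protein_coding transcripts alone Eif1 had 142 and 145 TPM, below Eif4g2, Eef1a2 and Eif5a. All members together took 0.836% and 0.829% of the gene counts. Below 1 TPM were Eef1akmt3, a lysine methyltransferase of eEF1A, at 0.07 and 0.05 TPM, and Eif4e1b, a relative of the cap-binding protein known from oocytes, which was listed at 0 in both libraries. A count of 0 allows up to 3 counts per library, and the second quantification described below gave Eif4e1b 3.07 and 5 counts.

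**Figure D1:**
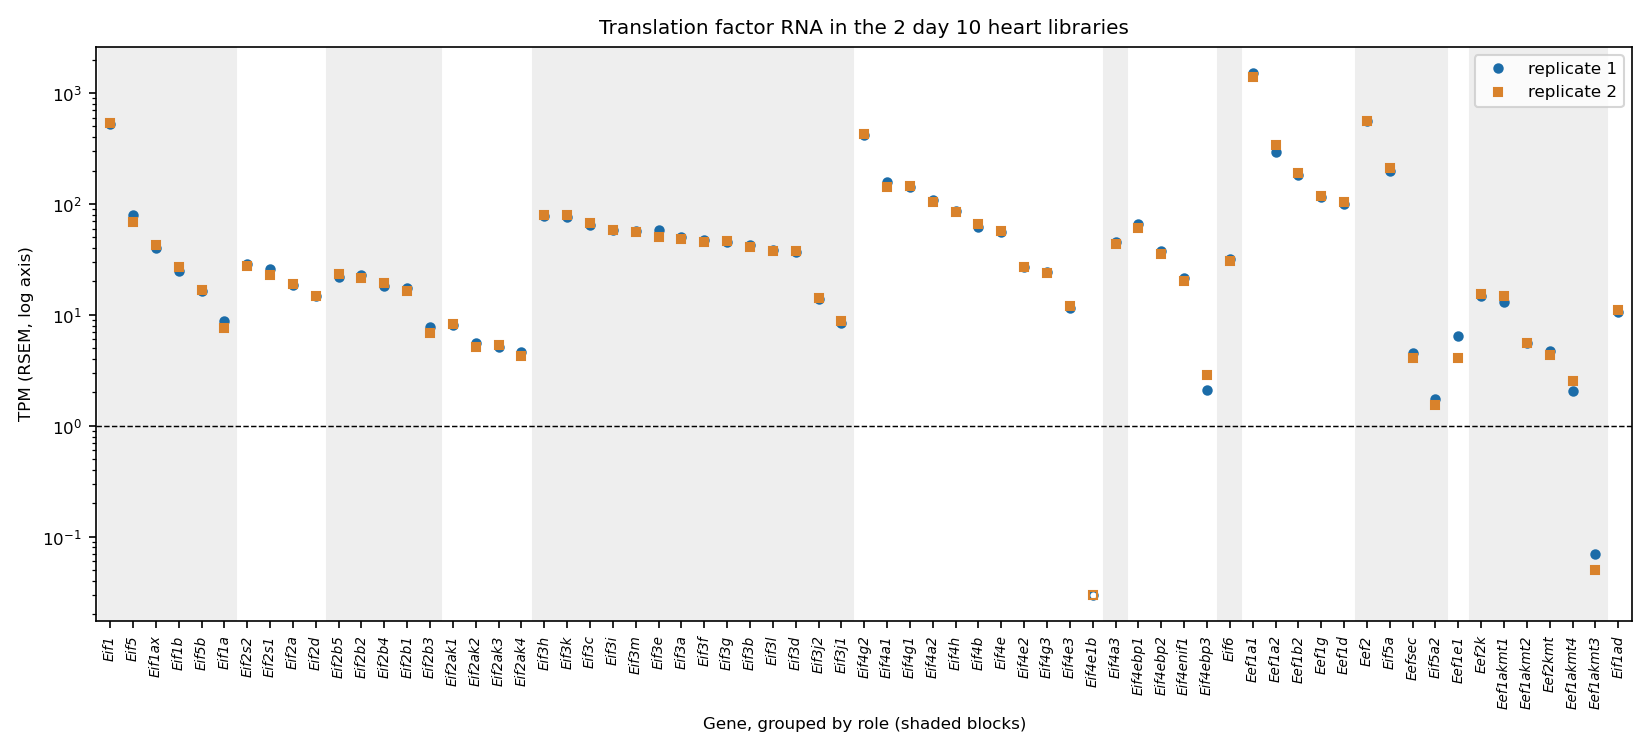
TPM of the 67 members on a log axis, grouped by role in shaded and white blocks from start codon selection at the left to Eif1ad at the right, with circles for replicate 1 and squares for replicate 2. The dashed line is at 1 TPM and the open symbols for Eif4e1b stand for a listed value of 0. Eef1a1 is highest at 1512 and 1403 TPM, and the 2 symbols of most genes nearly coincide.

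The delivery factor of elongation was the most abundant member and was made from both of its genes. The level of Eef1a1 was 1512 TPM in replicate 1 and 1403 TPM in replicate 2, and that of Eef1a2 was 293 and 343 TPM. Every Eef1a1 value was thus above every Eef1a2 value, and Eef1a2 alone ranked above all but 4 members. The log2 ratio of Eef1a2 to Eef1a1, each with 0.1 TPM added, was −2.37 and −2.03 in the 2 libraries (mean −2.20 ± 0.24, SD, n = 2), so Eef1a1 was 5.15-fold higher in replicate 1 and 4.09-fold higher in replicate 2. Eef1a2 supplied 16.2% and 19.7% of the summed eEF1A TPM. As a share of the 90933 and 88359 eEF1A counts, which are not corrected for length, it took 20.1% (exact Clopper-Pearson 95% interval 19.8 to 20.3) and 23.7% (23.4 to 24.0). These intervals cover counting error only, and they do not overlap. A pair is read as apart where both libraries have the same sign and the mean exceeds 3 SD, because 2 libraries allow no exact p-value under 0.5. By that rule Eef1a1 and Eef1a2 were apart.

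The reads of these 2 genes can be told from each other. Eef1a1 (ENSMUSG00000037742.14) lies on the minus strand at chr9:78478449-78489151 and Eef1a2 (ENSMUSG00000016349.10) on the minus strand at chr2:181147653-181157014, both in mm10. Their coding sequences, of 1386 and 1389 nt without the stop codon, were 79.9% identical when aligned end to end as nucleotides. The longest identical run was 23 nt. Of the 276 mismatched bases, 224 were at the third position of a codon, counted along Eef1a2. No stretch of 100 nt was shared between any transcripts of the 2 genes. The start of both reading frames is shown because it makes that pattern visible. These are coding bases 1 to 90 of transcripts Eef1a1-201 and Eef1a2-201 in GENCODE M21, with the bases that differ in capitals; all 15 differences fall on the third position of a codon.
Eef1a1: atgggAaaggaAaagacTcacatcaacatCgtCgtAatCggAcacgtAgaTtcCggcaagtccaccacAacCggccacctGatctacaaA
Eef1a2: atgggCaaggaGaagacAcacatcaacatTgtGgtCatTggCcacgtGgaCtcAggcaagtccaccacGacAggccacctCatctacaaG

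Eef1a1 does share sequence with pseudogenes. Of its 2769 stretches of 100 nt, 16.3% occurred in at least 1 of 10 other annotated genes, most of them processed pseudogenes. Among these, AC133509.1 was given 861 and 855 counts and Gm13456 531 and 462 counts, next to 72700 and 67438 for Eef1a1 itself. Eef1a2 shared no such stretch with any gene.

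The other subunits of the eEF1 complex, which recharge eEF1A with GTP, were lower than Eef1a1 and closer to one another. Eef1b2, the exchange factor eEF1B alpha, had 183 and 189 TPM, Eef1g, the scaffold subunit eEF1B gamma, 117 and 117 TPM, and Eef1d, the second exchange subunit eEF1B delta, 98.8 and 105 TPM. The ranges of these genes did not overlap in the 2 libraries. The log2 ratio of Eef1d to Eef1b2 was −0.87 ± 0.03 (n = 2), apart by the rule, but it came to 0.035 when only protein_coding transcripts were summed from the second quantification described below. The 5 genes of the complex had a median of 186 ± 4.33 TPM (mean ± SD of the library medians, n = 2), the highest of the role groups. Eef1g shared 32.4% of its 100-nt stretches with other genes, chiefly the pseudogene Gm4366, which was given 309 and 271 counts.

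The factors that act after tRNA delivery included both the second most abundant member and some of the rarest. Eef2, the translocase, stood at 559 and 563 TPM, which is 2.71-fold and 2.49-fold below Eef1a1. Eif5a, the hypusine-bearing factor that keeps ribosomes moving at difficult codons, had 197 and 210 TPM. Its close relative Eif5a2 was detected at only 1.74 and 1.55 TPM, so that with 0.1 TPM added to each the 2 eIF5A genes were 107-fold and 127-fold apart, the widest TPM ratio among the 16 pairs compared. Eefsec, which delivers the selenocysteine tRNA, had 4.50 and 4.09 TPM.

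The enzymes that modify elongation factors were low. Eef2k, the calmodulin-dependent kinase that halts eEF2, had 14.9 and 15.5 TPM, and Eef1akmt1, a methyltransferase of eEF1A, had 13.1 and 14.7 TPM. Eef1akmt2 stood at 5.62 and 5.54 TPM, Eef2kmt at 4.70 and 4.34 TPM, and Eef1akmt4 at 2.04 and 2.53 TPM. With Eef1akmt3 included, this group of 6 had a median of 5.05 ± 0.156 TPM. Eef1e1, which despite its name is a scaffold of the multisynthetase complex, had 6.43 TPM in replicate 1 and 4.08 TPM in replicate 2.

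Among the start codon factors, 1 gene dominated. Eif1, which guards the fidelity of start codon choice, had 527 and 532 TPM, and Eif1b, its close paralogue, had 25.01 and 26.73 TPM, a distance of 21.01-fold and 19.82-fold on the TPM + 0.1 scale. Over protein_coding transcripts alone the log2 ratio of Eif1b to Eif1 was −2.46, against −4.35 over all transcripts. Eif5, which triggers GTP hydrolysis by eIF2, had 80.1 and 68.8 TPM, and Eif5b, which joins the large subunit, had 16.5 and 16.8 TPM. The 2 genes for eIF1A were also apart: X-linked Eif1ax had 39.7 and 42.7 TPM, and Eif1a had 8.85 and 7.69 TPM. Their log2 ratio was 2.30 ± 0.22, but 1.01 over protein_coding transcripts and 0.87 by the second quantification. The median of these 6 genes was 33.5 ± 1.68 TPM.

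The genes for eIF2 and eIF2B were all moderate in level. Eif2s1 and Eif2s2, for the alpha and beta subunits, had 25.9 and 22.7 TPM and 28.4 and 27.5 TPM. This pair was the only one of 16 that was not apart, with a log2 ratio of 0.21 ± 0.10. It was apart by the second quantification (0.72), with counts not scaled by length (0.61) and over protein_coding transcripts (1.19, or 1.12 by the second quantification). Eif2a and Eif2d, which can bring initiator tRNA to ribosomes without eIF2, had 18.5 and 18.9 TPM and 14.7 and 14.8 TPM. All 5 eIF2B subunits were detected, from Eif2b3 at 7.73 and 6.91 TPM to Eif2b2 at 22.8 and 21.7 TPM and Eif2b5, the catalytic subunit, at 21.9 and 23.4 TPM, with a group median of 18.8 ± 0.764 TPM.

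The 4 eIF2 alpha kinases were lower than every eIF2 and eIF2B gene, except that Eif2ak1 was above Eif2b3. Eif2ak1 (HRI, the heme-regulated kinase) had 8.04 and 8.24 TPM, Eif2ak2 (PKR, activated by double-stranded RNA) 5.61 and 5.12 TPM, Eif2ak3 (PERK, the kinase of the endoplasmic reticulum) 5.08 and 5.35 TPM, and Eif2ak4 (GCN2, the sensor of uncharged tRNA) 4.64 and 4.23 TPM. Eif2ak1 was the highest and Eif2ak4 the lowest of the 4 in both libraries. The values of Eif2ak2 and Eif2ak3 overlap across the libraries, and their order reversed from 1 library to the other. The group median was 5.29 ± 0.0778 TPM.

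The subunits of eIF3, the scaffold of the initiation complex, lay close together apart from eIF3j. The 12 subunits other than eIF3j lay between 37.0 TPM (Eif3d) and 77.4 TPM (Eif3h) in replicate 1 and between 37.4 TPM (Eif3d) and 79.96 TPM (Eif3k) in replicate 2, a range of 2.09-fold and 2.14-fold. Eif3h and Eif3k had 77.4 and 79.6 TPM and 76.0 and 79.96 TPM, and they did not differ beyond their spread. The largest subunit gene, Eif3a, had 50 and 48.4 TPM, and Eif3e had 58.2 and 50.8 TPM.

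The loosely bound eIF3j is encoded by near-identical genes and lay below the core. Eif3j1 had 8.51 and 8.73 TPM and Eif3j2 13.98 and 14.21 TPM, with a sum of 22.5 and 22.9 TPM. The coding sequences of Eif3j1-201 and Eif3j2-201 aligned with 0 mismatched bases and a gap of 6 nt, and 84.0% of the 100-nt stretches of Eif3j2 occurred in Eif3j1. How the counts were divided between the 2 is therefore an estimate, and the sum is the firmer value.

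The eIF4 group, which binds the cap and unwinds the leader, had the highest median among the initiation groups, 63.8 ± 2.43 TPM over 11 genes. Of its scaffolds, Eif4g2 (DAP5, which lacks the cap-binding arm) led with 421 and 423 TPM, followed by Eif4g1, the general scaffold, with 143 and 144 TPM, and Eif4g3 with 24.4 and 23.7 TPM. Eif4g2 was 2.94-fold above Eif4g1 in both libraries, with a log2 ratio of 1.56 ± 0.0023. The helicase genes Eif4a1 and Eif4a2 stood at 157 and 143 TPM and at 108 and 105 TPM, with a log2 ratio of Eif4a2 to Eif4a1 of −0.49 ± 0.07. Over protein_coding transcripts alone Eif4a2 had 34.8 and 32.0 TPM and that ratio was −1.80. By the second quantification those transcripts had 61.3 and 59.2 TPM and the ratio was −0.84, so it depended on the method. Their relative Eif4a3, which sits in the exon junction complex, had 45.1 and 43.7 TPM, a log2 ratio to Eif4a1 of −1.75 that was −2.89 by the second quantification. Over protein_coding transcripts it was −1.85, and −1.54 by the second quantification. The helicase cofactors Eif4h and Eif4b had 86.1 and 84.0 TPM and 62.1 and 65.5 TPM.

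Among the cap-binding proteins, Eif4e had 55.5 and 56.9 TPM, Eif4e2 (4EHP, which represses initiation) 26.9 and 27.2 TPM and Eif4e3 11.6 and 12.1 TPM, an order that held in both libraries with no overlap. Of the 4E-binding proteins, which hold eIF4E back until mTOR phosphorylates them, Eif4ebp1 had 66.4 and 60.8 TPM, Eif4ebp2 37.8 and 35.1 TPM and Eif4ebp3 2.08 and 2.89 TPM. Eif4ebp3 shared 62.8% of its 100-nt stretches with another gene, the read-through gene AC115631.1 (334 and 315 counts), while it was itself given 41.9 and 57.2 counts. Its log2 ratio to Eif4ebp1 was −4.64 ± 0.41, but −2.85 over protein_coding transcripts and −1.03 over those transcripts by the second quantification. Eif4enif1, the eIF4E carrier 4E-T, had 21.6 and 20.1 TPM. Of the remaining members, Eif6, which keeps large subunits from joining too early, had 32.1 and 30.6 TPM, and Eif1ad, a nuclear relative of eIF1A, had 10.7 and 11.1 TPM.

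**Figure D2:**
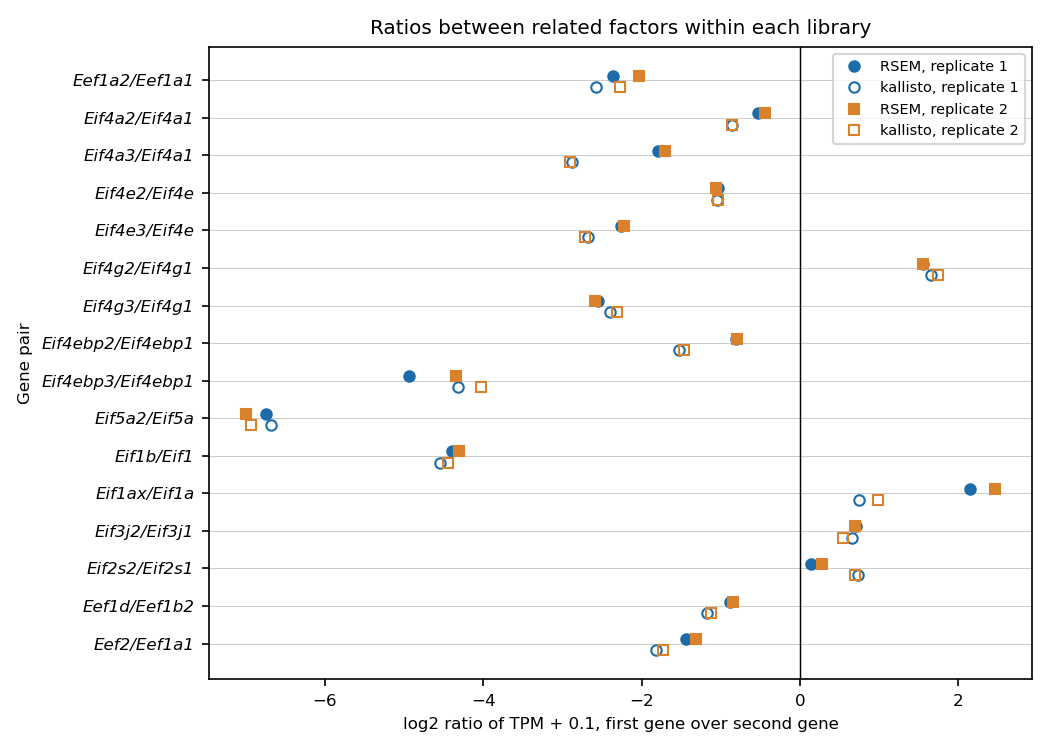
Log2 ratio of TPM + 0.1 for 16 pairs of related factors, first gene over second, in replicate 1 (circles) and replicate 2 (squares), by the deposited RSEM-type tables (filled) and kallisto-type tables (open). Points left of the line at 0 mean that the second gene is higher. Eef1a2/Eef1a1 lies at −2.37 and −2.03 by the first method and at −2.57 and −2.27 by the second, and Eif2s2/Eif2s1 lies nearest to 0 by the first method only.

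Every library was quantified in 2 ways, and for most members the level differed more between methods than between libraries. The second, kallisto-type tables gave Eef1a1 2181 and 2046 TPM and Eef1a2 367 and 424 TPM, an Eef1a2 share of 14.4% and 17.2%. Kallisto TPM were a median of 1.289 and 1.249 times the RSEM TPM over the members, and 1.254 and 1.239 times over all detected protein-coding genes. Beyond 2-fold in both libraries were Eif4a1 (2.60 and 2.54 times), Eif2b1 (2.08 and 2.23 times), Eif5b (2.04 and 2.06 times) and, in the other direction, Eif1ax (0.485 and 0.468 times). Eef1akmt3, which was under 1 TPM by both, differed 3.01-fold and 3.41-fold. With 408 and 363 TPM by kallisto, Eif4a1 would pass Eef1b2, at 336 and 353 TPM.

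The methods also differed in how much they gave to transcripts that encode no full protein. Over the 66 members with counts, a median of 98.0% and 98.2% of RSEM counts and 98.3% and 98.6% of kallisto counts fell in protein_coding transcripts. Under 90% in both libraries were 10 members by RSEM, 11 by kallisto and 7 by both. A plot of the 14 members concerned shows replicates close together and methods far apart for several.

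**Figure D3:**
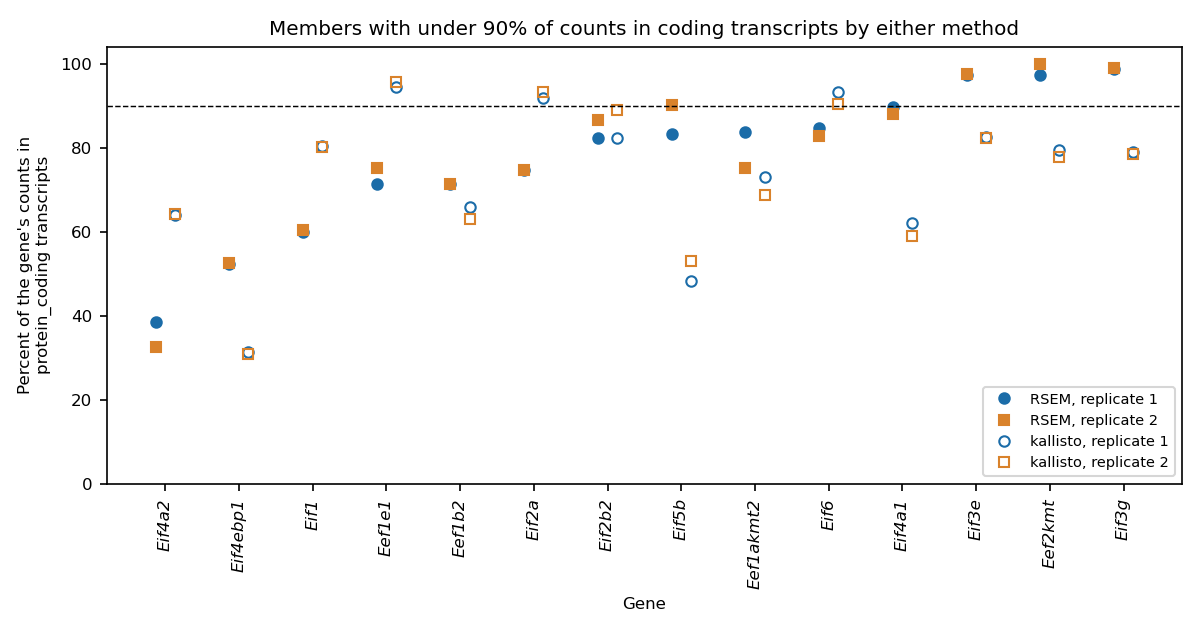
Percent of each gene's counts that fell in protein_coding transcripts, for the 14 members under 90% in both libraries by at least 1 method, with filled symbols for RSEM, open symbols for kallisto, circles for replicate 1 and squares for replicate 2. The dashed line is at 90%. Eif4a2 rises from 38.5% and 32.6% by RSEM to 64.1% in both libraries by kallisto, and Eif5b falls from 83.4% and 90.3% to 48.2% and 53.1%.

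Eif4ebp1 is the clearest case in which the gene total and the coding RNA differ. Its protein_coding transcript Eif4ebp1-201 held 52.3% and 52.6% of RSEM counts and 31.4% and 30.9% of kallisto counts. The rest went to Eif4ebp1-202, a processed transcript of 798 nt that shares 599 nt (75.1%) with Eif4ebp1-201. Counted over coding transcripts alone, Eif4ebp1 had 19.1 and 17.6 TPM, and the ratio to Eif4ebp2 turned: log2 Eif4ebp2/Eif4ebp1 was −0.80 ± 0.02 over all transcripts and 0.98 over coding transcripts.

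For Eif1 and the eIF4A genes, counts were also assigned to transcripts of other types than protein_coding, with shares that differed between the methods. These transcripts overlap coding ones, so the shares are estimates of how reads were divided. Eif1-202, a processed transcript of 383 nt, took 30.3% and 30.7% of Eif1 counts by RSEM and 12.1% and 12.8% by kallisto. Because TPM divides by length, it held 305 and 314 of the 527 and 532 TPM, and the coding transcripts of Eif1 came to 142 and 145 TPM. For Eif4a2, the transcript Eif4a2-210, annotated as a target of nonsense-mediated decay (NMD), took 33.2% and 38.7% of counts by RSEM and 3.88% and 6.77% by kallisto. It shares 99.8% of its length with Eif4a2-202, which is protein_coding. For Eif4a1 the retained-intron transcript Eif4a1-202 took 2.05% and 1.77% by RSEM and 18.7% and 17.3% by kallisto, although the coding TPM of Eif4a1 was alike, 125 and 109 by RSEM and 119 and 97.6 by kallisto.

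Other members had such transcripts too. An NMD transcript of Eef1b2, 691 nt long, held 21.1% and 22.5% of the gene's counts by RSEM and 16.7% and 16.6% by kallisto. The retained-intron transcript Eif5b-202 held 11.9% and 4.76% of Eif5b counts by RSEM and 46.1% and 41.1% by kallisto. Coding transcripts of Eif1ax came to 16.5 and 17.0 TPM by RSEM, against 19.26 and 19.97 TPM by kallisto, so the 2 methods were closer there than for the gene totals. Among 65 members the transcript with the most counts was the same in both libraries for 65 by RSEM and 61 by kallisto, and the same in all 4 readings for 55.

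Several introns of these genes also carry small nucleolar RNAs (snoRNAs), which guide the modification of ribosomal RNA. The RSEM tables gave Gm22988, inside Eif4a1, 699 and 552 counts, Gm26447, inside Eif4a2, 491 and 389 counts, and Gm23262, inside Eif4g2, 308 and 280 counts. All 3 were given 0 counts by kallisto. The pseudogene Eif4a-ps4 shares 1019 stretches of 100 nt with Eif4a1 and was given 698 and 529 counts. Eef1b2 overlaps Ndufs1 (19557 and 20806 counts) on the opposite strand. Other members also overlap a protein-coding gene there, among them Eif2b4 with Snx17 (1752 and 1730 counts), Eif1ad with Banf1 (1551 and 1535) and Eef1akmt4 with Alg3 (178 and 166). Whether the counting used strand is not given in the sources used here, so reads in such an overlap may come from either gene.

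No member was 1.5-fold apart between the libraries (0 of 65 with a summed count of at least 20). The share was 8.05% of all 16517 genes tested and 1.54% of detected protein-coding genes. At the latter share few or no members of so small a set would pass, so the 0 is not read as a trait of the set. The median absolute log2 ratio was 0.05 for the members and 0.09 for detected protein-coding genes. Members also had more counts, with a median sum of 3325 against 1589, and the part of this in the smaller spread was not tested. By at least 25%, 3 members differed, against 19.4% of all genes and 7.80% of detected protein-coding genes: Eif4ebp3 (1.39-fold higher in replicate 2), Eef1akmt4 (1.26-fold higher) and Eef1e1 (1.34-fold lower). By kallisto counts none of these 3 differed by 25%. There is 1 library on each side, so none of these differences has a replicate check.

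The counting interval of the log2 ratio, an exact 95% interval for counting error, excluded 0 for 13 members (20%), against 27.0% of all genes and 31.4% of detected protein-coding genes. Higher in replicate 2 were 7 members, Eef1a2, Eef1b2, Eef1d, Eef2, Eif2b4, Eif4g2 and Eif5a, in the direction of 14.9% of all genes and 18.1% of detected protein-coding genes. Lower were 6 members, Eef1a1, Eef1e1, Eif3e, Eif4a1, Eif4ebp1 and Eif5, in the direction of 12.1% and 13.2%. Eef1a2 was 0.24 higher on the log2 scale (0.21 to 0.27), while Eef1a1 was 0.07 lower (−0.08 to −0.05), which is the same movement as in their shares. The signs of both held with the other scalings tried.

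**Figure D4:**
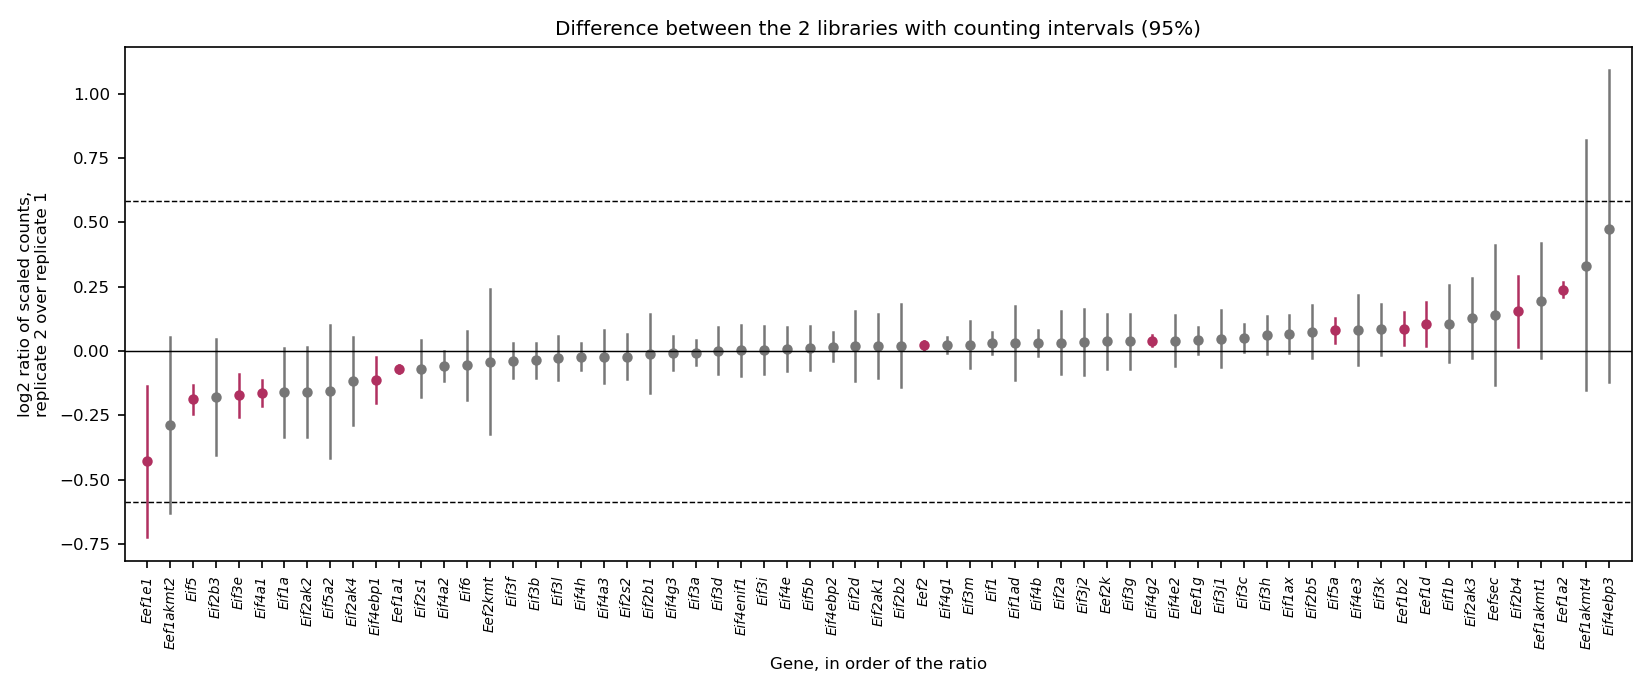
Log2 ratio of TMM-scaled counts, replicate 2 over replicate 1, for the 65 members with a summed count of at least 20, in order of the ratio, with exact 95% counting intervals as bars. Red marks the 13 members whose interval excludes 0, and dashed lines mark a fold of 1.5. All 65 points lie between the dashed lines, with Eef1e1 lowest and Eif4ebp3 highest.

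The members with the largest ratios were mostly rare. At the upper end, Eif4ebp3 was 0.48 higher (−0.12 to 1.09), Eef1akmt4 0.33 higher (−0.15 to 0.82), Eef1akmt1 0.20 higher (−0.03 to 0.42) and Eif2b4 0.16 higher (0.02 to 0.29). At the lower end, Eef1e1 was at −0.43 (−0.72 to −0.13), Eef1akmt2 at −0.29 (−0.63 to 0.05), Eif5 at −0.19 (−0.24 to −0.13), Eif2b3 at −0.18 (−0.40 to 0.05) and Eif3e at −0.17 (−0.25 to −0.09). By kallisto counts several were smaller: Eif4ebp3 was 0.17 higher, Eef1akmt4 0.17 higher, Eef1e1 at −0.17, Eef1akmt2 at −0.15 and Eif2b3 at −0.09. Eef1a2, with 18233 and 20921 counts, was 0.24 higher by both methods.

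Some cardiac muscle genes moved by a similar amount as Eef1a2. Ryr2 was 0.22 higher and Myh6 0.19 higher on the log2 scale, while Myl2 was at −0.06, and the atrial, erythroid and adipocyte markers moved as given above. In whole hearts, more cells of a type and more RNA per cell cannot be told apart, and the part of these markers in the Eef1a2 difference was not tested. The split of the set into higher and lower depended on the scaling. With TMM, 40 members were higher and 25 lower in replicate 2, with DESeq2 size factors 35 and 30, with totals of non-mitochondrial counts 18 and 47, and with spike-in totals 7 and 58, so no direction is given for the set.

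Genes of the same pathways that are not members were read from 6 lists holding 53 genes. Only Gspt2 passed the fold of 1.5 between the libraries, against 8.05% of all genes tested and 1.54% of detected protein-coding genes. In the list around eIF2, Atf4, the transcription factor made when eIF2 alpha is phosphorylated, was highest with 38.9 and 34.5 TPM, and Impact, an inhibitor of GCN2, lowest with 6.51 and 7.08 TPM. Among initiation helpers, the poly(A) binding protein gene Pabpc1 had 166 and 181 TPM and the helicase gene Dhx29 6.40 and 6.25 TPM. Among mTOR and MAP kinase inputs, the ribosomal protein gene Rps6, a target of S6 kinase, had 257 and 252 TPM and the mTOR subunit gene Mlst8 5.19 and 4.42 TPM.

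The remaining lists cover modification, termination and mitochondria. Of the enzymes that make diphthamide on eEF2 or hypusine on eIF5A, Dph3 was highest with 33.8 and 36.3 TPM and Dph2 lowest with 1.94 and 1.65 TPM. Gspt1, for the termination factor eRF3a, had 33.7 and 30.2 TPM, and its paralogue Gspt2 only 0.50 and 0.27 TPM. On scaled counts Gspt2 was at −0.83 in log2 (−1.71 to −0.03), from only 37 and 20 counts. Tufm, the mitochondrial counterpart of eEF1A, led its list with 101 and 129 TPM and Mtrf1 was lowest with 2.45 and 2.69 TPM. Median levels of the 6 lists ran from 4.67 ± 0.354 TPM (modification enzymes) to 36.9 ± 1.43 TPM (initiation helpers).

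Promoters were available for 51 of the 67 members, as 66 windows of the 250 bases before a start, taken from RefSeq on GRCm38.p6. The E-box CACGTG, a palindrome bound by MYC, USF and related factors, was in 14 windows (21.2%) of 12 members, against 6.02% of all 32851 windows and 8.28% of the 11841 windows of detected protein-coding genes. All motifs were read on both strands. The GC box GGGCGG was in 66.7% against 58.4% of the detected genes' windows, the CCAAT box in 24.2% against 35.2%, and TATAAA in 6.06% against 6.32%. The ETS motif CCGGAAGT was in 7.58% against 5.84% and a MEF2-like pattern in 3.03% against 2.82%. That pattern allows any base at its middle positions, so its matches are not read as MEF2 sites. These are letter matches and not binding sites, and some members have more than 1 window. No motif contains another.

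The last 100 bases before the RefSeq start are shown for the eEF1A pair, for Eef2 and Eif4g1 as members with an E-box, and for Eif4a1, which has a pair of CCAAT boxes here. Each is written 5′ to 3′ on the strand of the gene. Capitals mark the E-box CACGTG, the CCAAT box and TATAAA. The windows are chr9:78481725-78481824 (minus) for Eef1a1, chr2:181157016-181157115 (minus) for Eef1a2, chr10:81176531-81176630 (plus) for Eef2, chr16:20672627-20672726 (plus) for Eif4g1 and chr11:69672424-69672523 (minus) for Eif4a1. None of the capital motifs was in the windows of Eef1a1 and Eef1a2, whose G and C content was 76% and 62%.
Eef1a1: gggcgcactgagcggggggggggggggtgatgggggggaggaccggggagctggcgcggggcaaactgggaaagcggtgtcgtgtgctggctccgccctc
Eef1a2: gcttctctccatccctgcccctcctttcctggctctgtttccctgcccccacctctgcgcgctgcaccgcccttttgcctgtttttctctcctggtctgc
Eef2: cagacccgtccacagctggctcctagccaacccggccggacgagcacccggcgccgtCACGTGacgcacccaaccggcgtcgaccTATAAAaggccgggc
Eif4g1: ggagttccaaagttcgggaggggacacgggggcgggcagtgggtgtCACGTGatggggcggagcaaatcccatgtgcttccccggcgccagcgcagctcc
Eif4a1: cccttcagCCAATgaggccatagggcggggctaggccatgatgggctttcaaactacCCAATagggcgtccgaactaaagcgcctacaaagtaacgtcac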

How the data were processed

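Whole hearts gave 2 total RNA libraries. The authors deposited, for each, a gene table and 2 transcript tables on mm10 with GENCODE M21, per the text deposited with them. Gene tables and one kind of transcript table hold the expected count and TPM, and these transcript tables also the percent of the gene's TPM per transcript, as RSEM writes them per the file headers. The other transcript tables hold the estimated count and TPM, as kallisto writes them per the file headers. For tool versions, trimming and the strand setting, the sources used here name none. RSEM length exceeds effective length by 99 nt, while kallisto implies fragments of 334 and 330 nt, which changes TPM most for short transcripts. Reads were assigned on the C57BL/6J reference, so CAST/EiJ alleles may be undercounted.

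Kallisto values were summed by gene. Expected counts were rounded and scaled by TMM (edgeR 4.0.16, R 4.3.3) with a prior count of 0.5, for genes whose counts sum to 20 or more. DESeq2 1.42.0 gave an alternative scaling. Entries naming no gene (3.84 and 2.92 counts) and spike-ins (218556 and 229051 counts) were left out. No test between groups exists with 1 group. The ratio step was tested on simulated counts that held counting error only, so it cannot tell of spread between animals. Intervals cover counting error only, because they are computed from the counts alone, with no term for spread between animals. PCR copies carried no molecular identifiers, and their part in the counts was not tested. Every member may be named; full values are given for the pairs, the 5 largest ratios in each direction between libraries and members differing over 2-fold between methods, and of other pathway genes the highest, the lowest and any past 1.5-fold. Coding sequences were aligned end to end as nucleotides. Python 3.11.15 was used. The members, lists, pairs and motifs were chosen with earlier results of these data known.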

Additional observations from a re-analysis of the deposited data

How the results depend on the processing

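Most pair ratios kept their side: of 160 alternative values for 16 pairs, 151 kept their sign and any call, 4 became apart and 5 reversed. The size could still change: Eif4ebp3/Eif4ebp1 went from −4.64 to −1.03 with protein_coding transcripts by kallisto. Values without 1 replicate carry no call. Their sign could not change, because both libraries had the same sign for every pair. Adding pseudogenes of the same symbol changed only Eif1b/Eif1. Those reversed were Eif4ebp2/Eif4ebp1 (log2 1.32 with counts not scaled by length, 0.98 with protein_coding transcripts and 1.64 with those transcripts by kallisto), Eif3j2/Eif3j1 (−0.44 with unscaled counts) and Eef1d/Eef1b2 (0.035 with protein_coding transcripts by kallisto). The cause was not tested. The 4 that became apart were all Eif2s2/Eif2s1, between 0.61 with unscaled counts and 1.19 with protein_coding transcripts. Eef1a2/Eef1a1 stayed apart, from −1.84 with unscaled counts to −2.42 by kallisto, and was −2.03 without replicate 1 and −2.37 without replicate 2. The median over all members, 28.0 TPM, was 36.7 TPM by kallisto and 66.1 TPM over nuclear protein-coding genes alone, a change of denominator. It was 27.5 TPM without replicate 1 and 28.4 TPM without replicate 2. Role medians moved by more than the spread in 19 of 40 alternative values. Values from 1 library alone could not move by this measure, because the spread comes from the same 2 libraries. Of the others, only the eIF2 and initiator tRNA group by kallisto stayed, at 21.9 against 21.5 TPM. The count of members apart between libraries, 0 at a fold of 1.5, was 3 at a difference of 25% and 13 by the counting interval. The median coding share, 98.1% of RSEM counts, was 98.5% by kallisto and 95.8% as a share of TPM, and 98.2% without replicate 1 and 98.0% without replicate 2. The kallisto coding-only ratio and a sum with pseudogenes sharing a 100-nt stretch were chosen after seeing the data. No paired analysis was possible because there is 1 group. Depth limits the rarest members: Eif4ebp3, Eef1akmt4 and Eef1akmt3 had under 100 counts in each library.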
